A study of Mus musculus with 16 samples.

Results

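The cells described here are the Sox6/Acan cells, a small population in day-21 cultures of mouse bone marrow stromal cells that carries RNA of Sox6, a transcription factor of cartilage and nerve, or of Acan, which encodes aggrecan, the large proteoglycan of cartilage. They were selected on the counts of these 2 genes alone. A cell had to hold at least 500 detected genes and under 20% mitochondrial counts, and in it Sox6 and Acan together had to reach at least 2 unique molecular identifiers (UMIs, each standing for 1 captured RNA molecule) and at least 2 per 10000 gene UMIs. Of 17793 cells, 15847 passed the filter and 86 of these, 0.543%, were Sox6/Acan cells. The selection used the values of Sox6 and Acan, so these are given only as a description.

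The cells came from 12-week-old C57BL/6J mice of 4 genotypes. Dmp1KO is the global Dmp1 knockout (Dmp1tm1Mis). In Fgf23cKO the Cre of B6N.FVB-Tg(Dmp1-cre)1Jqfe/BwdJ mice deletes a floxed first exon of Fgf23. The deletion is limited to cells that use the Dmp1 promoter of this transgene, which is active in osteocytes and late osteoblasts. Dmp1KO/Fgf23cKO carries both changes. In the study's genotyping, WT and Dmp1KO mice carry the floxed Fgf23 as well, without the Cre. Marrow cells were grown for 21 days in osteoblastic medium with 10 mM β-glycerophosphate, and 3 cultures of each genotype were labelled with CellPlex tags, sorted as 7-AAD-negative viable cells and pooled by genotype for droplet sequencing of RNA 3′ ends. Each genotype was run as a single droplet reaction, and effects of the 2 cannot be told apart. The samples numbered 4 are the untagged cells of each pool and no separate cultures. The cultures came from several mice of each genotype, but the labels do not tie a culture to an animal, so p values measure the spread between these cultures. Of 16 samples 15 were used, and the Dmp1KO 1 counts were not used here.

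Total counts ranged from 3560752 UMIs in WT 4 to 72482185 in Dmp1KO 2. The median filtered cell held 7432.5 UMIs in WT, 33069 in Fgf23cKO, 21287 in Dmp1KO and 34653.5 in Dmp1KO/Fgf23cKO. Dmp1, the deleted gene of 2 genotypes, had 3466 UMIs in the 5100.0 WT cells, 4598 in the 2367 Fgf23cKO cells, 5 in the 6032 Dmp1KO cells and 174 in the 2348 Dmp1KO/Fgf23cKO cells. Fgf23, which encodes a phosphate-regulating hormone, had 9, 10, 2 and 1 UMIs in the same order and so could not serve as a check. The Sox6/Acan cells held 45 Dmp1 UMIs and no Fgf23 UMI.

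In cartilage, SOX9 together with SOX5 and SOX6 drives the genes of the chondrocyte matrix, above all Col2a1, Col9a1, Col11a2 and Acan, and a cell with Sox6 and Acan is commonly read as a chondrocyte. Both genes also have roles outside cartilage. SOX6 acts in neural and glial cells, and aggrecan is part of the matrix around neurons. Schwann cells, the glia of peripheral nerve, descend from the neural crest under the control of SOX10, and nerve fibres with their Schwann cells run through bone and marrow. A mature Schwann cell either wraps an axon in myelin or ensheathes small axons without myelin. After loss of the axon, Schwann cells stop making myelin, switch on JUN, SOX2, NGFR and GAP43, and secrete neurotrophic factors.

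The 86 cells were spread unevenly over the samples. Among WT samples there were 9 of 1038 cells in WT 1, 12 of 1893 in WT 2, 16 of 1689 in WT 3 and 6 of 480 in the untagged WT 4. Fgf23cKO 1, 2 and 3 held 6 of 425 cells, 6 of 388 cells and 24 cells (4.56%), and the untagged Fgf23cKO 4 held 6 of 1028. No cell of Dmp1KO 2, 3 or 4 and only 1 of 846 cells of Dmp1KO/Fgf23cKO 1 met the rule, and the other 3 Dmp1KO/Fgf23cKO samples had none. WT and Fgf23cKO thus supplied all but 1 of the cells, and Fgf23cKO 3 alone supplied 24.

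**Figure D1:**
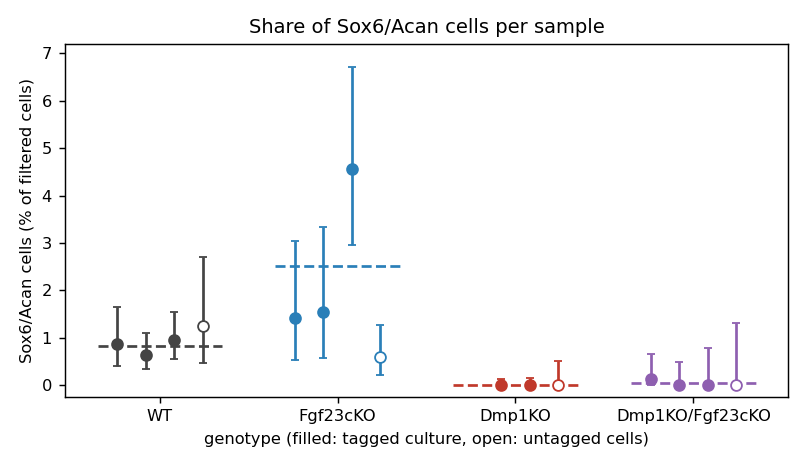
Share of filtered cells (%, vertical axis) that were Sox6/Acan cells in each sample by genotype, with exact 95% binomial intervals as bars, tagged cultures as filled points, untagged cells as open points, and the mean of the tagged cultures as a dashed line. Fgf23cKO 3 stands at 4.56%, the WT cultures lie between 0.634 and 0.947%, and all Dmp1KO samples lie at 0.

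Both selected genes were present in most of these cells. Sox6 and Acan UMIs occurred together in 69 cells, Sox6 alone in 14 and Acan alone in 3. The median cell held 11 Sox6 and 13.5 Acan UMIs, and the highest held 78 and 275. Together the 86 cells contained 80.6% of the 1745 Sox6 UMIs and 97.6% of the 3148 Acan UMIs of all filtered cells, shares that the selection itself raises.

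As CPM, in which the UMIs of a class of cells are summed and scaled to a common total, Sox6, on chromosome 7 (GRCm38, chr7:115470872-116038796, minus strand), was at 293, 433, 523 and 390 in the Sox6/Acan cells of WT 1 to 4 and at 488, 429, 657 and 599 in those of Fgf23cKO 1 to 4. Acan (chr7:79053483-79115099, plus strand) was at 1207, 877, 1106 and 1518 CPM in WT 1 to 4 and at 1230, 865, 1249 and 1461 in Fgf23cKO 1 to 4. Neither gene separated the 2 genotypes by its range. The cells lay well above the limit in most cases: Sox6 and Acan together had a median of 14.1 per 10000 UMIs, a lowest value of 2.15 and a highest of 78.5, and 10 cells lay between 2 and 4. Just outside, 52 cells had at least 2 UMIs but a share no higher than 1.87 per 10000, in a median of 63239 UMIs, and another 137 cells had a single UMI. Of those 52 cells, 3 carried at least 3 of the Schwann cell markers described below. In 18 of the 137 cells the single UMI came to 2 or more per 10000, and 7 of these 18 carried at least 3 of the markers.

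The Sox6/Acan cells were not shallow. They held 835 to 142758 UMIs with a median of 21838.5, against 17590.0 in the other cells, and their median mitochondrial share was 2.63% against 3.04%. No barcode of a Sox6/Acan cell recurred in another library, although 35 barcodes did among all cells. Cells were also scored by 20 collagen and matrix genes against 20 blood-lineage genes, and a cell with more UMIs of the first list is called stroma-scored. By this score 62 of the Sox6/Acan cells were stroma-scored and 24 were haematopoietic-scored. The other cells comprised 1112 stroma-scored cells, the comparator used below, and a large majority of haematopoietic-scored cells.

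Col2a1, the type II collagen gene that defines cartilage (chr15:97975602-98004695, minus strand), had no UMI in any Sox6/Acan cell, where 3 counts would correspond to 1.15 CPM and 0 of 86 cells allows a share of up to 3.49% of cells with a UMI, which limits detection and not expression. The gene was measurable in these cultures: it had 868 UMIs in 97 other cells, 67 of them stroma-scored, and stood at 18.1 CPM in the other stroma-scored cells. It was thus at least 15.7-fold lower in the Sox6/Acan cells than in the other stroma-scored cells pooled over all genotypes. Col2a1 UMIs were present in every genotype, 175 in WT, 208 in Fgf23cKO, 126 in Dmp1KO and 359 in Dmp1KO/Fgf23cKO. The bound therefore does not compare cells of the same samples. A fit chosen after the data were seen did so for the stroma-scored cells of Fgf23cKO 2 and 3. It called Col2a1 lower in the Sox6/Acan cells (edgeR quasi-likelihood adjusted p = 0.00155). No size is given, since these cells had no Col2a1 UMI. In the fit of WT cultures alone the gene was not tested.

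Of 17 chondrocyte markers, 8 were detected in the Sox6/Acan cells and 9 were at 0: Col2a1, the type IX collagen genes Col9a1 and Col9a2, the matrilin genes Matn1 and Matn3, Cnmd, Chad, Ucma and Prg4. Of these 9, Col9a1 and Chad were also at 0 in the other stroma-scored cells. Summed, the list reached 494 CPM in the Sox6/Acan cells and 1050 CPM in the other stroma-scored cells, and Col11a1, a fibrillar collagen gene that osteoblasts also use, made up most of it in both, with 346 and 796 CPM. In the WT and Fgf23cKO samples the list stood at 131 to 1235 CPM in the Sox6/Acan cells, highest in WT 1, and at 695 to 1686 CPM in the other stroma-scored cells. In the other stroma-scored cells of Dmp1KO it stood at 361 to 543 CPM.

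The Schwann cell markers were far more abundant. Of this list of 8 genes, among them Sox10, S100b, Erbb3, Foxd3, Cdh19 and Ngfr, 7 were detected in the Sox6/Acan cells. The list summed to 3094 CPM in the Sox6/Acan cells, 87.7 CPM in the other stroma-scored cells and 5.04 CPM in the other haematopoietic-scored cells. The most abundant gene was Cdh19 in the Sox6/Acan cells, at 1031 CPM, and S100b in the other stroma-scored cells, at 78.3 CPM. By sample the list stood at 1639, 2392, 3085 and 2415 CPM in the Sox6/Acan cells of WT 1 to 4 and at 2902, 3780, 3151 and 3448 CPM in those of Fgf23cKO 1 to 4, while no other stroma of these samples exceeded 113 CPM. The 2 classes therefore did not overlap in any sample.

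**Figure D2:**
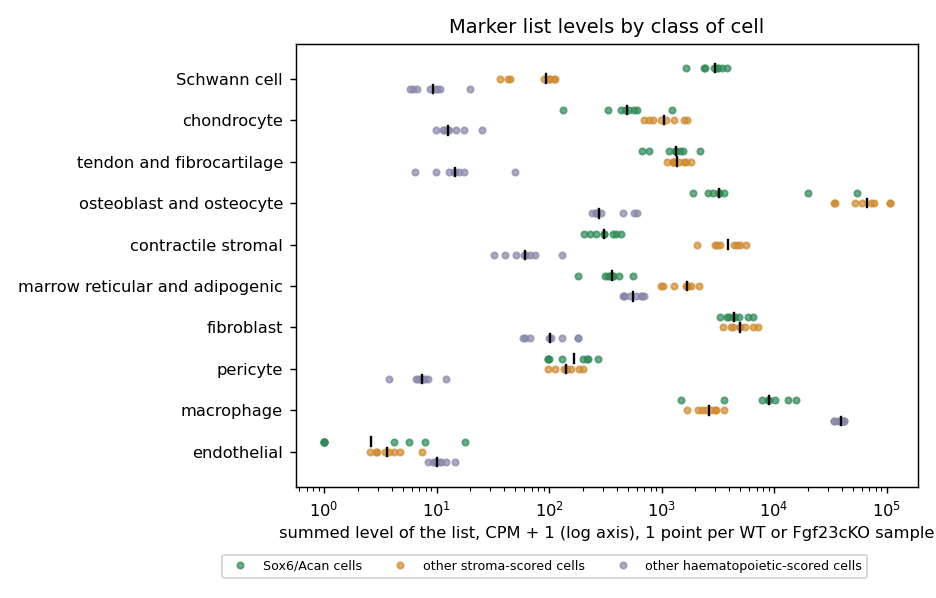
Summed level of 10 marker lists (CPM + 1, log horizontal axis) in the Sox6/Acan cells, the other stroma-scored cells and the other haematopoietic-scored cells, with 1 point per WT or Fgf23cKO sample and the median as a black bar. The Schwann cell list is the one in which every Sox6/Acan point, from 1639 CPM upward, lies above all other points, whose highest is 113 CPM.

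Cell by cell, 81 of the 86 Sox6/Acan cells, 94.2%, carried at least 3 of the 8 Schwann cell markers, and 65 carried 6 or 7. Among 15761 other cells only 25, 0.159%, carried at least 3. The shares of cells with a UMI were high for single genes too. Cdh19, a cadherin of the Schwann cell lineage, was found in 95.3% of Sox6/Acan cells, 1.35% of other stroma-scored cells and 0.300% of other haematopoietic-scored cells. Sox10, the lineage's master regulator, was found in 87.2%, 0.899% and 0.259%, and Foxd3, a neural crest factor, in 86.0%, 0.540% and 0.150%. The other haematopoietic-scored cells, at a median of 17730.0 UMIs, thus carried these genes far less often than the Sox6/Acan cells. Some of them held at least 3 of the markers, with up to 63.4 marker UMIs per 10000, so this class is no clean measure of stray RNA. S100b behaved otherwise, with 38.4% of Sox6/Acan cells and 39.7% of other stroma-scored cells.

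**Figure D3:**
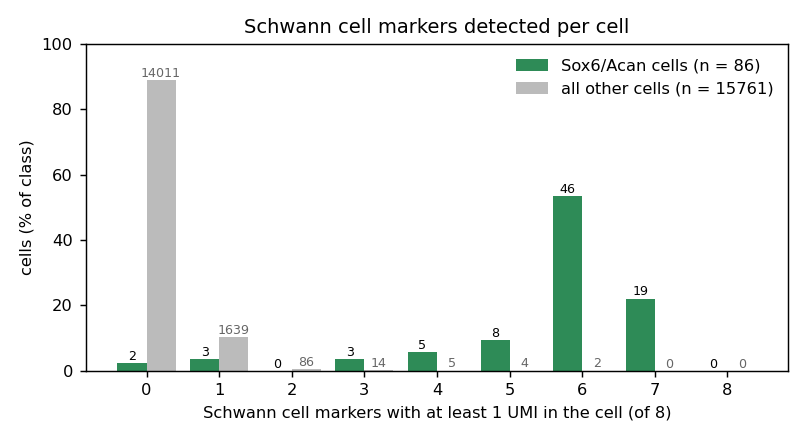
Percent of cells of a class (vertical axis) by the number of the 8 Schwann cell markers with at least 1 UMI (horizontal axis), for 86 Sox6/Acan cells and 15761 other cells, with the number of cells above each bar. The Sox6/Acan cells peak at 6 markers with 46 cells, and 14011 other cells have none.

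Of the 5 Sox6/Acan cells with fewer than 3 of these markers, 4 held bone matrix RNA. The 3 from WT 1 and the 1 from WT 3 held 666 to 1056 Col1a1 UMIs and 375 to 1059 UMIs of Ibsp, the bone sialoprotein gene, together with 31 to 54 Col11a1 UMIs and at most 7 UMIs of Sox6 and Acan in the WT 1 cells. None of these 4 cells had a UMI of Csmd1, Xkr4 or Cadm2, which 94.2, 89.5 and 91.9% of the Sox6/Acan cells carried. The last, from the untagged WT 4, was a small cell of 1319 UMIs with 36 Csmd1 UMIs. The Sox6/Acan cells therefore were not uniform, and in WT 1, where 3 of 9 were such bone-matrix cells, sums over the class mix both kinds.

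In a space built without Sox6 and Acan the cells lay together, which is a description and no test. Among the 15 nearest neighbours of a Sox6/Acan cell in 30 principal components of the most variable genes, on average 86.5% were again Sox6/Acan cells, although they were 0.543% of all cells, and the median was 100%. In 76 of 86 cells at least 50% of the neighbours were Sox6/Acan cells. The mean was 17.3% in the 5 cells with fewer than 3 Schwann cell markers and 90.8% in the others. Of those 5 cells, 4 had no Sox6/Acan cell among their neighbours, and the highest share was 86.7%. WT and Fgf23cKO cells were mixed in this neighbourhood: 52.8% of a cell's Sox6/Acan neighbours came from its own genotype, where WT made up 50.0% and Fgf23cKO 48.8% of all the cells.

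Expression was tested on UMI counts summed per culture with edgeR's quasi-likelihood test, with the culture as a block, at a Benjamini-Hochberg adjusted p under 0.1. Against all other cells of the same 6 WT and Fgf23cKO cultures, 2240 of 12027 genes were higher and 3193 lower in the Sox6/Acan cells, together 45.2% of the genes tested (18.6% higher, 26.5% lower). All 7 Schwann cell markers that could be tested were higher, with a median log2 difference of 9.42, against −0.09 over all genes. Most of the other cells were haematopoietic-scored, and the 15 macrophage and 10 cycling genes tested were all lower in the Sox6/Acan cells, with medians of −2.33 and −2.60. Of 6 chondrocyte markers tested in this comparison, Hapln1, Sox5 and Col11a1 were higher and none was lower, with a median of 1.16. The stroma-scored Sox6/Acan cells were next compared with the other stroma-scored cells.

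That comparison could use 5 cultures, WT 1, 2 and 3 and Fgf23cKO 2 and 3. It called 1066 of 8194 genes higher (13.0%) and 1216 lower (14.8%), 27.8% in all, with a median log2 difference of −0.06. The log2 differences in the following paragraphs are from this comparison, each with its standard error (SE), while levels in CPM are given for all Sox6/Acan cells of a sample, whether stroma-scored or not. With 1 culture left out, the calls of Col27a1, Col4a2, Col8a1, Dcn, Mef2c, Mmp14, Nfatc1, Panx3, Smad7 and Sox4 were each lost at least once, as were those of Ibsp, Sox9 and Col11a1 described below.

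Of the Schwann cell list, 6 of the 7 genes tested were higher and none lower, with a median log2 difference of 7.96. Sox10 was at 202, 313, 382 and 275 CPM in the Sox6/Acan cells of WT 1 to 4 and at 288, 362, 340 and 435 CPM in those of Fgf23cKO 1 to 4, while no other stroma exceeded 8.51 CPM. Its log2 difference was 8.10 ± 0.71 (SE, n = 5 pairs, edgeR quasi-likelihood adjusted p = 9.4e-06). Cdh19 differed by 9.73 ± 0.74, Ngfr, the low-affinity neurotrophin receptor gene, by 8.76 ± 0.54, Foxd3 by 7.54 ± 0.77 and Erbb3, the receptor through which neuregulin sustains Schwann cells, by 7.36 ± 0.42. These 5 genes were called in every one of the alternative fits that tested them. For S100b, a calcium-binding protein of glia and cartilage, the log2 difference was −0.04 ± 0.38 (adjusted p = 0.97 in the same edgeR fit), and its levels overlapped between the classes.

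**Figure D4:**
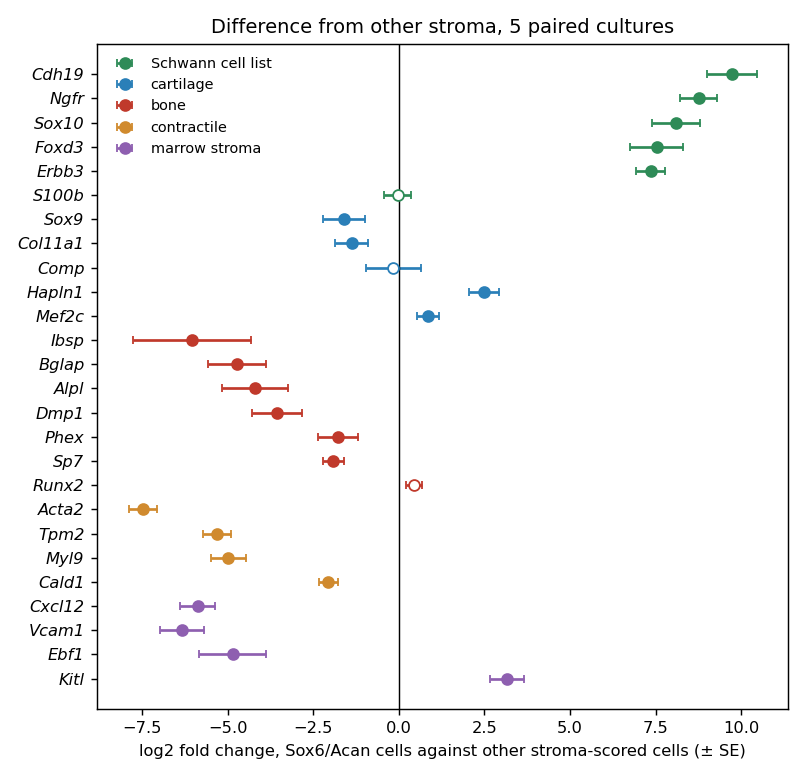
Log2 fold change (horizontal axis, ± SE) of stroma-scored Sox6/Acan cells against other stroma-scored cells in 5 paired cultures, for named genes coloured by list, with filled points for an edgeR quasi-likelihood adjusted p under 0.1 and open points otherwise. The 5 called Schwann cell genes shown lie between 7.36 and 9.73, and Ibsp, Alpl, Acta2 and Cxcl12 lie to the left of 0.

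Further glial genes, put into lists after their values had been seen, went the same way. Among glial transcription factors, 7 of 8 tested were higher. Sox2, which keeps Schwann cells immature, stood at 69.8 to 299 CPM in the Sox6/Acan cells and at no more than 3.19 CPM in other stroma, a log2 difference of 8.82 ± 0.50. Zfp536, a zinc finger gene of immature Schwann cells, differed by 9.96 ± 0.56 and Tfap2a, a neural crest factor, by 5.94 ± 0.53. Sox8 was at 0 in the Sox6/Acan cells, and Snai2, shared by neural crest and mesenchyme, had a log2 difference of −0.16 ± 0.19.

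Of 12 genes of the nerve injury response, again a list made after the values were seen, 6 could be tested, and 5 were higher, among them Gap43, Gdnf, Artn and Jun, and none lower. Against all other cells 7 of 8 were higher and Ccl2, a chemokine gene, was lower. Gap43, a growth-associated protein gene, stood at 1088, 1327, 1292 and 940 CPM in WT 1 to 4 and at 197, 1130, 573 and 627 CPM in Fgf23cKO 1 to 4, with no other stroma above 3.19 CPM, and differed by 10.76 ± 0.62. Gdnf, which encodes a neurotrophic factor, stood at 80.7 to 186 CPM against at most 11.0 CPM and differed by 5.35 ± 0.46, and Artn, of the same ligand family, by 4.04 ± 0.47. Jun, the transcription factor gene that leads the injury program, differed by 2.59 ± 0.24. It is also a gene of dissociation stress, and of that list 10 genes were tested, of which Jun and Atf3 were higher, Egr1, Fosb and Ier2 were lower, and the median was −0.12. Shh, a hedgehog ligand of injured nerve, had no UMI in the Sox6/Acan cells.

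Of 14 myelin genes, a list also made after the values were seen, only 2 could be tested. Pou3f1, a driver of myelination, had no UMI in the Sox6/Acan cells. Mbp was found in 20.9% of them and in 53.1% of haematopoietic-scored cells, Egr2 in 10.5% and 44.4%, and Pmp22 in 60.5% and 81.6%, so none of these 3 stood above the macrophage-rich background. Of the 2 tested, Cnp, which encodes a phosphodiesterase of glial membranes, was called, with 90.7 to 172 CPM against 7.09 to 14.1 CPM and a log2 difference of 3.73 ± 0.26. Against all other cells, Mal and Cnp were higher and Egr2, Pmp22 and Mbp lower among 6 tested.

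Adhesion and axon contact genes of glia formed another block, 10 of 11 tested being higher and 1 lower in a list likewise made after the values were seen. Chl1, a cell adhesion molecule gene, stood at 419 to 1003 CPM in the Sox6/Acan cells and at no more than 4.26 CPM in other stroma, a log2 difference of 9.32 ± 0.37. L1cam, through which unmyelinated axons adhere, differed by 7.35 ± 0.43, Cadm4, which binds the axon at the internode, by 9.16 ± 0.41, and Gldn, which encodes gliomedin and gathers sodium channels at nodes of Ranvier, by 6.84 ± 0.42. Ncam1 was the exception: it stood at 0 to 48.4 CPM in the Sox6/Acan cells and at 108 to 236 CPM in other stroma, and fell by 2.25 on the log2 scale (SE 0.51).

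The list of neural and axon guidance genes was mixed. Of 13 genes tested, 4 were higher, among them Cadm2, Ntm and Lsamp, Epha3, Robo1, Ptprd, Unc5c, Slit2 and Ncam1 were lower, and the median was −0.76. Cadm2, a synaptic adhesion gene, stood at 752 to 2283 CPM against at most 2.30 CPM. Nrg1, the neuregulin gene, was in 1.16% of Sox6/Acan cells and 12.5% of other stroma-scored cells, while its receptor Erbb3 showed the reverse.

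The genes with the largest positive differences that were higher in every pair were Slc35f1 at 11.25 ± 0.39, Gap43, Lrtm1, Gad2, Epha5 at 10.35 ± 0.32, Ntng1 at 10.31 ± 0.39, Cadm2, Ntm, Kcna2 and Fgf5 at 10.00 ± 0.39. Gad2, which encodes a GABA-synthesising enzyme, and Kcna2, which encodes a potassium channel subunit of axon and glia, had no UMI in the other stroma of these 5 cultures and were at least 396-fold and at least 480-fold higher, counting 3 UMIs over the summed cells as the floor. Gad2 stood at 51.7 to 293 CPM in the Sox6/Acan cells and Fgf5, a fibroblast growth factor gene, at 126 to 331 CPM. Csmd1, a very long gene of the nervous system, was at 5545 to 10635 CPM against 31.4 to 225 CPM and differed by 7.21 ± 0.46.

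Long genes took a larger part of the counts in these cells. The 1077 genes with a span over 200 kb held 9.76% of the UMIs of the Sox6/Acan cells, 6.35 to 11.6% by sample, and 5.37% of those of the other stroma-scored cells, 4.21 to 6.18% over all samples. Without Sox6, Acan and Csmd1 the share in the Sox6/Acan cells was 8.85%. Sox6 and Csmd1 are themselves such genes. The part of gene length in these differences was not tested.

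Collagens and the basement membrane separated the cells from the bone matrix around them. Schwann cells build a basal lamina, and of 13 basement membrane genes tested (a list made after the values were seen) 8 were higher and 1, Lamb1, was lower. Col18a1, which encodes a basement membrane collagen, stood at 509 to 1353 CPM against 5.14 to 32.5 CPM and differed by 6.10 ± 0.48. Agrn, the agrin gene, differed by 4.98 ± 0.25, Nid1, the nidogen gene, by 3.56 ± 0.23, and Itga6, part of a laminin receptor, by 2.62 ± 0.29. Col4a1 did not pass the test, at 0.26 ± 0.26.

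Of 11 collagens tested, Col14a1, Col18a1, Col15a1, Col27a1 and Col4a2 were higher and Col12a1, Col5a3, Col24a1, Col8a1 and Col11a1 were lower, with a median of 0.26. Col14a1, a fibril-associated collagen gene, stood at 269 to 801 CPM against at most 4.79 CPM and differed by 9.51 ± 0.43, and Col15a1 by 5.41 ± 0.38. Col1a1, the type I collagen gene of bone, belongs to the stroma score and is given as levels only: 17250 CPM in the Sox6/Acan cells of WT 1, 6120 in WT 3 and 270 to 683 in the other 6 samples, against 9042 to 32152 CPM in other stroma. The high values in WT 1 and WT 3 were those of the samples with bone-matrix cells among the selected ones.

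Bone genes were low in most Sox6/Acan cells. Of 12 osteoblast and osteocyte markers tested, 11 were lower and none higher, with a median log2 difference of −3.21. Bglap, the osteocalcin gene, stood at 0 to 391 CPM in the Sox6/Acan cells and at 1202 to 8103 CPM in other stroma, and fell by 4.74 on the log2 scale (SE 0.84, edgeR adjusted p = 0.0019). Ibsp stood at 14927 CPM in WT 1, 4763 in WT 3 and 14.5 to 125 in the other 6 samples against 6576 to 31581 CPM, so only the WT 1 value lay within the range of other stroma, and its difference was −6.05 ± 1.73. With only the cells that carried at least 3 Schwann cell markers it was −9.09. The call of Ibsp was lost without Fgf23cKO 2 or Fgf23cKO 3, and in WT cultures alone the difference was −2.85 (edgeR adjusted p = 0.411). Alpl, the alkaline phosphatase gene, differed by −4.21 ± 0.97 and Dmp1 by −3.56 ± 0.73. With only cells of at least 3 Schwann cell markers the differences were −7.75 and −6.59. In WT cultures alone Alpl differed by −2.67 and lost its call (edgeR adjusted p = 0.154), and Dmp1 differed by −2.76. In the 2 Fgf23cKO cultures alone Ibsp differed by −8.16, Alpl by −7.84 and Dmp1 by −6.02, and all 3 were called. Whether the differences themselves differed between the genotypes was not tested. Runx2, the early osteoblast regulator, did not pass, at 0.43 ± 0.23 (adjusted p = 0.22 in the edgeR fit), with 304 to 1552 CPM in the Sox6/Acan cells and 411 to 785 CPM in other stroma.

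The remaining cartilage regulators and matrix genes showed a mixture. Of 6 chondrocyte markers tested, Hapln1 was higher, Sox9 and Col11a1 were lower, and the median was −0.77. Sox9, the cartilage master regulator, had UMIs in 11.6% of Sox6/Acan cells and 29.3% of other stroma-scored cells and differed by −1.60 ± 0.61 (edgeR adjusted p = 0.085), or −2.96 with only cells of at least 3 Schwann cell markers. The calls of Sox9 and Col11a1 were both lost when WT 2, WT 3 or Fgf23cKO 3 was left out. In WT cultures alone they differed by −0.88 and −1.59 and were not called (edgeR adjusted p = 0.554 and 0.286). In Fgf23cKO cultures alone they differed by −2.58 and −1.16 and were called. With only cells of at least 3 Schwann cell markers Col11a1 differed by −2.56 and Col11a2 by −4.71, both called. Col11a2 differed by −0.93 in WT cultures alone (edgeR adjusted p = 0.626) and by −4.09 in Fgf23cKO cultures alone. Sox5, the partner of Sox9, did not pass, at 1.24 ± 0.50 (adjusted p = 0.11 in edgeR), but was called with only cells of at least 3 Schwann cell markers (1.24, edgeR adjusted p = 0.0577). Hapln1, the link protein gene that ties aggrecan to hyaluronan, stood at 3.03 to 28.9 CPM against 1.57 to 9.59 CPM and differed by 2.49 ± 0.44. Of 5 hypertrophic chondrocyte markers tested, Mef2c was higher, at 0.84 ± 0.32, and Mmp13, Pth1r, Sp7 and Panx3 were lower. With only cells of at least 3 Schwann cell markers Mef2c differed by 0.57 and was no longer called (edgeR adjusted p = 0.125), nor was it in WT cultures alone (0.45). In WT cultures alone the calls of Mmp13 (−2.46), Pth1r (−1.98) and Panx3 (−0.69) were lost as well, with edgeR adjusted p-values of 0.210, 0.297 and 0.630. In Fgf23cKO cultures alone all 4 were called, Mef2c at 1.44, Mmp13 at −8.83, Pth1r at −8.26 and Panx3 at −4.16. Among 10 SOX and chondrogenic regulators, Zbtb20 and Sox4 were higher and 6, including Prrx1 and Runx3, were lower.

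Of 14 proteoglycan and hyaluronan genes tested, 3 were higher and 9 lower, with a median log2 difference of −2.02. Against all other cells 6 were higher and 4 lower. Hapln1, Hspg2, the perlecan gene, at 1.19 ± 0.20, and Gpc1, a glypican gene, at 0.97 ± 0.22, were the 3 that were higher. Vcan, the versican gene and nearest relative of Acan outside nerve, stood at 0 to 27.9 CPM against 32.1 to 118 CPM and fell by 4.61 on the log2 scale (SE 0.62). Bcan, the brevican gene, had UMIs in 2.33% of Sox6/Acan cells and Ncan, the neurocan gene, in none. Dcn, the decorin gene, differed by −2.77 ± 0.87 and Has2, which makes hyaluronan, by −2.22 ± 0.47. With only cells of at least 3 Schwann cell markers the differences were −5.55 and −2.15. In WT cultures alone they were −1.39 and −1.32, and both calls were lost (edgeR adjusted p = 0.479 and 0.313). In Fgf23cKO cultures alone they were −5.12 and −2.69, and both were called.

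Enzymes that build the chondroitin sulfate chains of aggrecan were also mixed, 3 of 17 being higher and 7 lower. Xylt1, which starts the chain, stood at 51.3 to 124 CPM against 13.8 to 28.7 CPM and differed by 2.12 ± 0.25. Slc26a2, the sulfate transporter gene, differed by 2.52 ± 0.36 and Chst11, a chondroitin sulfotransferase gene, by 0.89 ± 0.23. Csgalnact1, which begins chondroitin polymerisation, went the other way, with 0 to 5.45 CPM against 33.9 to 173 CPM and a difference of −7.39 ± 0.49.

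Of 9 aggrecanases, matrix proteases and inhibitors tested, the aggrecanase genes Adamts1 and Adamts5 and the gelatinase gene Mmp2 were higher, and Mmp13, Mmp14, Adamts9, Timp1, Timp2 and Timp3 were lower. Adamts1 stood at 244 to 1093 CPM against 13.4 to 36.9 CPM and differed by 4.47 ± 0.38. Adamts5 stood at 215 to 518 CPM against 15.6 to 45.5 CPM and differed by 3.70 ± 0.28. Timp3, which inhibits aggrecanases, differed by −3.20 ± 0.34.

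Of 16 WNT pathway genes tested only Frzb, a secreted inhibitor, was higher, at 2.40 ± 0.26, and 10 were lower, with a median of −2.25. Of 13 FGF receptor and ERK feedback genes, Fgf2 (2.01 ± 0.36) and Spry2 (1.80 ± 0.40) were higher and 5 were lower, among them Fgfr1, a receptor gene for FGF23 and other FGFs, at −3.46 ± 0.72, and Fgf7, at −8.42 ± 0.59. Fgfr1 differed by −6.19 with only cells of at least 3 Schwann cell markers, and by −2.07 in WT cultures alone, where its call was lost (edgeR adjusted p = 0.101). In Fgf23cKO cultures alone it differed by −5.84 and was called. Of 21 BMP and TGF-β pathway genes, 5 were higher, including Id1, Id2 and Smad7, and 9 were lower. Of 6 hedgehog pathway genes, none was higher, and Gas1 and Ptch1 were lower.

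All 6 contractile genes tested were lower, with a median of −5.83: Acta2, the smooth muscle actin gene, stood at 0 to 42.4 CPM against 491 to 1421 CPM and fell by 7.49 on the log2 scale (SE 0.41). Of 9 marrow reticular and adipogenic genes, 7 were lower, among them Cxcl12, a chemokine gene of marrow stroma, at −5.89 ± 0.50, and Kitl, the stem cell factor gene, was higher, at 3.16 ± 0.51. Of 5 fibroblast genes 4 were lower, and Ly6a, the Sca-1 gene, was higher, at 552 to 3964 CPM against 98.4 to 309 CPM (2.99 ± 0.26). Mcam, an adhesion gene of pericytes and glia, was the 1 of 3 pericyte genes that was higher, at 6.04 ± 0.47, and none was lower. The pericyte list summed to 192 CPM in the Sox6/Acan cells and 137 CPM in the other stroma-scored cells. Of the tendon and fibrocartilage list 1 of 3 genes tested, Fmod, was lower, and of the osteoclast list both genes tested, Ctsk and Nfatc1, were lower. The 1 megakaryocyte and the 1 cycling gene tested were not called, and no endothelial, erythroid or lymphocyte and neutrophil marker had enough counts to be tested. In the lists added after the values were seen, Erbb3 was higher and Egfr lower among neuregulin receptors and ligands, Tubb3, a tubulin gene, was the 1 neuron gene tested and was higher, and the 1 melanocyte gene tested was not called.

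The largest negative differences that held in every pair belonged to genes without a single UMI in the stroma-scored Sox6/Acan cells, for which only a bound can be given. Il1rn, an interleukin-1 antagonist gene, was at least 96.1-fold lower, Sfrp4, a WNT inhibitor gene, at least 71.4-fold, Gzme at least 46.9-fold, Svep1 at least 35.3-fold and Tgfbr3, a TGF-β co-receptor gene, at least 34.6-fold. The other 5 were Adgrf5, at least 28.5-fold lower, Cyp1b1, Rgs17, Angpt1 and Pcdh19, at least 18.6-fold lower. Egfr, also without a UMI in any Sox6/Acan cell, stood at 24.3 to 69.4 CPM in other stroma.

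Macrophage RNA was present beside the glial RNA. The 15 macrophage markers summed to 7502 CPM in the Sox6/Acan cells and 2913 CPM in the other stroma-scored cells, led by the lysozyme gene Lyz2 with 4615 and 1736 CPM, and all 15 were detected. The 24 haematopoietic-scored Sox6/Acan cells had a median of 211 macrophage UMIs per 10000, against 378 in other haematopoietic-scored cells, and a median of 19.3 Schwann cell marker UMIs per 10000, against 39.9 in the stroma-scored ones. In the stroma-scored Sox6/Acan cells the macrophage median was 12.6, below the 17.9 of other stroma-scored cells. Multiplets within a culture share a tag and remain in the data, no doublet caller was run, and their part in the haematopoietic-scored cells was not tested. The comparison with other stroma left these cells out, and in it neither of the 2 macrophage genes outside the score lists was called.

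Cells chosen through Acan and cells chosen through Sox6 alone shared the glial genes. Acan-positive and Sox6-only cells could be compared in 2 cultures, WT 2 (9 against 3 cells) and Fgf23cKO 3 (18 against 6 cells). Of 4999 genes tested 40 were higher and 6 lower in the Acan-positive cells, 0.92% in all (0.8% higher, 0.12% lower). None of the 7 Schwann cell markers tested was called in edgeR, and their median log2 difference was −0.10, against 0.04 over all genes. Tnc, which encodes the matrix glycoprotein tenascin C, had the clearest difference, 4.99 ± 0.48 (edgeR adjusted p = 0.0285), and Col11a1 differed by 4.84 ± 0.76. By pair, however, Col11a1 differed by 0.944 and 5.19, so its value rested mostly on 1 culture. Lsamp, a gene of neuronal adhesion, had no UMI in the Sox6-only cells and was at least 21.7-fold higher. Magi2 and Hmga2 were among the 6 lower genes, at −2.02 ± 0.32 and −1.76 ± 0.32. The macrophage genes Itgam, Mrc1 and C1qc were also higher in the Acan-positive class, 3 of 14 tested, and their part in the other differences was not tested. With 2 pairs the count was unstable: DESeq2 called 27 genes.

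The share of Sox6/Acan cells was then compared between genotypes over tagged cultures. WT cultures held 0.816% ± 0.163 (SD, n = 3), Fgf23cKO cultures 2.51% ± 1.78 (SD, n = 3), Dmp1KO cultures 0% (n = 2) and Dmp1KO/Fgf23cKO cultures 0.0394% (0.118, 0 and 0%, n = 3). The differences from WT were −0.816 percentage points for Dmp1KO (two-sided exact permutation p = 0.2), 1.69 for Fgf23cKO (p = 0.1) and −0.777 for Dmp1KO/Fgf23cKO (p = 0.1), with adjusted exact p values of 0.267, 0.2 and 0.2 over 4 comparisons. In each of these 3 comparisons the cultures did not overlap, and these p values are the smallest that 3 against 3 (0.1) or 2 against 3 cultures (0.2) can give. Dmp1KO/Fgf23cKO differed from Dmp1KO by 0.0394 points (exact permutation p = 1).

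The difference between Fgf23cKO and WT depended on 1 culture, on the denominator and on the untagged cells. Without Fgf23cKO 3 it was 0.663 points. With the untagged samples it was 1.10 points, the samples overlapped, and the exact permutation p was 0.229. Among stroma-scored cells alone the shares were 19.1% in Fgf23cKO and 10.2% in WT, the cultures overlapped, and the exact permutation p was 0.6. With cells thinned to 5000 UMIs, since Fgf23cKO cells were deeper, the difference was 1.28 points and the cultures still did not overlap.

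With the untagged samples, the median stroma-scored cell held 6561 UMIs in Dmp1KO and 11770.0 in WT. This is the reverse of the order over all filtered cells. In the tagged cultures the medians were 17537 and 29275 in Dmp1KO 2 and 3 and 14370, 12490 and 18865 in WT 1 to 3. In the untagged Dmp1KO 4 and WT 4 they were 3511.5 and 3214.5. With cells thinned to 5000 UMIs, shallower cells being left out, Dmp1KO cultures again held 0% and WT cultures 0.865%. Unthinned and pooled, WT had 43 of 5100.0 cells, 0.843% (exact Clopper-Pearson 95% interval 0.611 to 1.13%), Fgf23cKO 42 of 2367, 1.77% (1.28 to 2.39%), Dmp1KO 0 of 6032, which allows a share of up to 0.0497%, and Dmp1KO/Fgf23cKO 1 of 2348, 0.0426%. These intervals and limits cover counting error only and not the spread between cultures or reactions.

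The Schwann cell markers, which the selection did not use, were also summed over all filtered cells. In such sums, fewer cells of a type and less RNA per cell cannot be told apart. Sox10 stood at 3.601 to 8.71 CPM in the WT samples, at 5.02, 6.29, 18.2 and 4.31 CPM in Fgf23cKO 1 to 4, and at 0 in all 3 Dmp1KO samples. In Dmp1KO/Fgf23cKO 1 to 4 it stood at 0.401, 0.0324, 1.18 and 0 CPM. For Sox10 the WT and Fgf23cKO samples overlapped, and all samples of the other 2 genotypes lay below them. Foxd3 and Cdh19 were separated likewise, but Ngfr, Erbb3 and S100b were not. Ngfr stood at 5.29 CPM in Dmp1KO/Fgf23cKO 3 and at 5.07 CPM in WT 1, and Erbb3 at 2.46 and 2.11 CPM. S100b stood at 12.1 to 18.8 CPM in Dmp1KO/Fgf23cKO and at 15.3 CPM in Dmp1KO 4, against 4.10 to 19.2 CPM in WT. Sox10, Foxd3, Ngfr and Sox2 had no UMI in the 6032 Dmp1KO cells and Cdh19 had 1, whereas Sox6 itself still had 53 UMIs there, and no Dmp1KO cell carried 3 Schwann cell markers. In Dmp1KO/Fgf23cKO, 5 cells did, of which 1 met the Sox6 and Acan rule. Those of the 5 with just 3 markers were deep cells of 111387 to 171084 UMIs. They held 0.360 to 2.06 marker UMIs per 10000, against a median of 33.6 in the Sox6/Acan cells. The remaining cell, from Dmp1KO/Fgf23cKO 3, held 6 of the markers at 15.6 marker UMIs per 10000. Its 19 Sox6 UMIs among 122252 UMIs came to 1.55 per 10000, below the limit of the rule. By the share of cells with at least 3 of the markers, in place of the Sox6 and Acan rule, Fgf23cKO stood at 2.68%, WT at 0.923%, Dmp1KO/Fgf23cKO at 0.150% and Dmp1KO at 0%. With 1 droplet reaction for each genotype, genotype and preparation cannot be told apart in these differences.

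**Figure D5:**
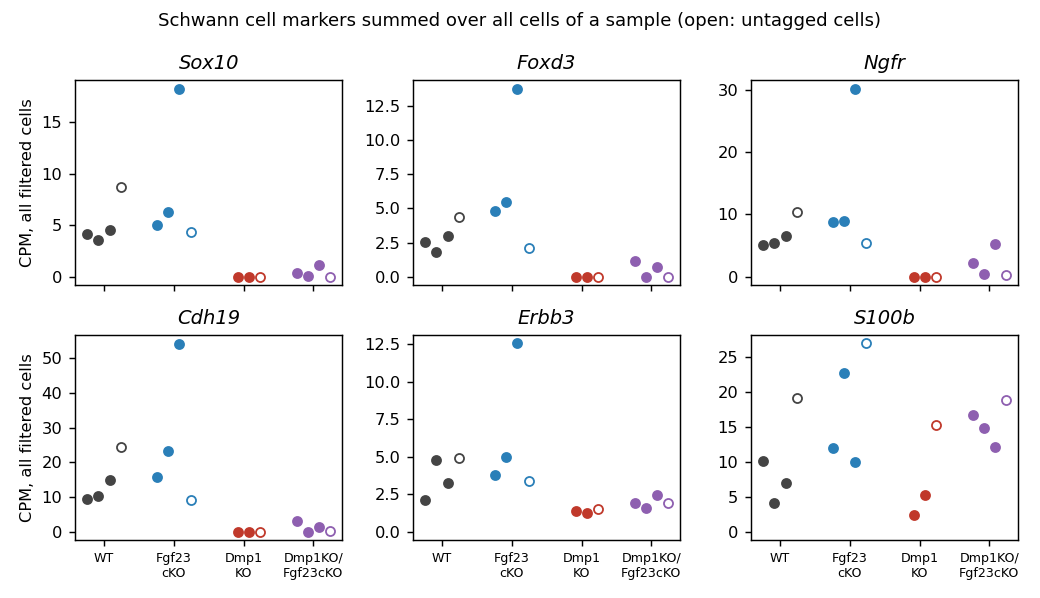
Level of 6 Schwann cell markers (CPM, vertical axes) summed over all filtered cells of each sample, by genotype, with filled points for tagged cultures and open points for untagged cells. Sox10 lies at 0 in all Dmp1KO samples and at 18.2 CPM in Fgf23cKO 3, and Erbb3 and S100b stay above 0 in Dmp1KO.

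Within the stroma-scored Sox6/Acan cells, expression could be compared between Fgf23cKO (2 cultures, 5 and 19 cells) and WT (3 cultures, 8, 6 and 10 cells), but not for Dmp1KO or Dmp1KO/Fgf23cKO, which had too few cells. Of 2795 genes tested, 4 were higher in Fgf23cKO, 0.143%, and none was lower by edgeR, with 276 genes at an unadjusted p under 0.05. Without WT 3 no gene was called by edgeR (303 at an unadjusted p under 0.05), and without WT 2 there were 52 calls. Leaving out Fgf23cKO 3 left a single Fgf23cKO culture, so no calls are given for it. None of the 7 Schwann cell markers tested was called. Col25a1, which encodes a membrane collagen of neurons, differed most, with 0, 5.70, 0 and 0 CPM in the Sox6/Acan cells of WT 1 to 4 and 93.9, 278, 228 and 112 CPM in those of Fgf23cKO 1 to 4, so that the genotypes did not overlap, and a log2 difference of 6.42 ± 0.67 (edgeR adjusted p = 0.00566). Clstn2, a synaptic calsyntenin gene, stood at 48.8 to 96.8 CPM in WT and 291 to 710 CPM in Fgf23cKO and differed by 2.64 ± 0.39 (adjusted p = 0.0401 in edgeR). The other 2, Gm42418, a model over ribosomal RNA repeats, and Lars2, a mitochondrial leucyl-tRNA synthetase gene, were at 2.51 ± 0.31 and 2.67 ± 0.45, and both were also higher in the other stroma of Fgf23cKO, with Lars2 at 220 to 494 CPM there and at 72.5 to 154 CPM in WT. DESeq2 called 32 genes, 12 higher and 20 lower. With only cells of at least 3 Schwann cell markers, 75 genes were called, 31 higher and 44 lower.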

How the data were processed

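Bone marrow stromal cell cultures were profiled by droplet single-cell RNA-Seq, 3 tagged cultures and 1 set of untagged cells per genotype. The authors made the deposited UMI counts, which are not normalized, with Cell Ranger 7.0.1, assigned cells to cultures by their tags and took out cells with several tags. Multiplets within a culture remain, and no doublet caller was run here. The submitters' processing notes name mm10. Coordinates are those of GENCODE M21 (GRCm38), the same assembly. The sources used here do not say whether intronic reads were counted. The Dmp1KO 1 counts were not used here, and the results of some genes are not reported here.

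Counts were summed per culture and class (at least 5 cells, or at least 3 for Acan-positive against Sox6-only cells) and tested with edgeR 4.0.16 in R 4.3.3 (TMM, filterByExpr, quasi-likelihood test, Benjamini-Hochberg over all genes tested, threshold 0.1, SE from the log2 difference and its F statistic). Sox6, Acan and, in the stroma comparison, the score genes were left out of the calls. Shares of cells were compared by two-sided exact permutation tests over tagged cultures. Exact Clopper-Pearson intervals are at 95%, and a count of 0 is limited by 3 counts. The named genes were Sox6, Acan, Col2a1, Dmp1 and Fgf23, the 10 highest and 10 lowest called genes that moved alike in every pair (or whose cultures did not overlap), and members of the lists. Csmd1, outside this rule, was chosen after its values were seen. The cells, lists and rule were chosen with earlier results of these data known, and 8 glial, myelin, neuron and melanocyte lists were added after seeing the values. Other settings were RLE factors, DESeq2 1.42.0, no filter on low counts or on cells, other cell minimums, a stricter rule, both genes required, deep comparator cells, untagged samples, each culture left out, and the replicate number as a block.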

Additional observations from a re-analysis of the deposited data

Results flagged for a closer look

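Within WT, Fgf23cKO and Dmp1KO/Fgf23cKO the 4 samples were compared for a sample far from the others (Dmp1KO had 3 and was not compared), in 20 groups of values, of which chance alone marks about 1 in 20. Dmp1KO/Fgf23cKO 1 stood apart with 0.118% Sox6/Acan cells among its filtered cells, and with 1.41% among its stroma-scored cells, where the other 3 Dmp1KO/Fgf23cKO samples had none. Both values are the same single cell. It held 84682 UMIs and 7 of the 8 Schwann cell markers, and was the only Sox6/Acan cell of that genotype. Where the other 3 samples stand at 0, any value above 0 is marked, so the rate given above does not apply to these values.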

How the results depend on the processing

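The calls of Sox10, Cdh19, Ngfr, Foxd3 and Erbb3 held in the comparisons with all other cells and with other stroma under all alternatives that tested them. Against all other cells 5433 genes were called, 4269 to 5905 with 1 culture left out, 2565 with WT samples only and 5286 with Fgf23cKO samples only. Against other stroma 2282 were called, 1340 to 2804 with 1 culture left out, the lowest without Fgf23cKO 3, 697 with WT samples only and 2527 with Fgf23cKO samples only. Acan-positive against Sox6-only cells gave 46 calls, 2 at an adjusted p under 0.05, 27 by DESeq2 and 186 without the filter on low counts. Leaving out a culture leaves 1 pair and no residual degrees of freedom there, untagged samples added no pair, and at least 10 cells in each sum left none.

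Fgf23cKO against WT within the Sox6/Acan cells gave 4 calls, 32 by DESeq2, 230.0 without the filter on low counts, 31 with untagged samples, 23 with at least 3 cells in each sum, 75 with at least 3 Schwann cell markers in each cell and 48 with all Sox6/Acan cells. With 1 WT culture left out it gave 0 to 52, none without WT 3 (303 at an unadjusted p under 0.05 by edgeR). Leaving out an Fgf23cKO culture left a single one in that group, so no count is given. The fits and shares by at least 3 Schwann cell markers, the fit with all Sox6/Acan cells, and the WT-only and Fgf23cKO-only fits were chosen after seeing the data.

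The deviations of same-numbered cultures had r = −0.0341 in the Sox6/Acan cells and 0.375, −0.196 and −0.591 for numbers 1, 2 and 3 in the other cells, so not every pair deviated together, and the numbers were not taken to pair the cultures. With the replicate block the Fgf23cKO against WT expression comparison gave 27 calls, 6 higher and 21 lower, and the shares differed by −0.791, 1.69, −0.777 and 0 points in the order Dmp1KO, Fgf23cKO and Dmp1KO/Fgf23cKO against WT and Dmp1KO/Fgf23cKO against Dmp1KO. Without the culture block the 3 comparisons of cell classes gave 6018, 2635 and 69 calls. Share differences with 1 culture left out ranged from −0.907 to −0.750, 0.663 to 2.24, −0.868 to −0.711 and 0 to 0.0591 points in that order.

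Directions turned, as log2 differences, for Chsy1 (0.045), Fgfr1 (0.59), Lgr6 (−0.65) and Twist1 (0.20) against all other cells in WT only, Ibsp there without the culture block (0.12), and Timp1 there with both genes required (0.10). The cause was not tested. The number of Sox6/Acan cells, at most 24 in a sample, limits all these values.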
